A study of Saccharomyces cerevisiae BY4741 with 6 samples.

Results

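Nascent transcription of 10 genes of glycogen metabolism was followed in budding yeast: GLG2, GSY1, GSY2, GLC3, GPH1, GDB1, PGM1, GAC1, PIG1 and PCL10. They were chosen by function, with earlier results of these data known, from the systematic names in a NET-seq count table. All 10 of the 10 named genes are among its 5219 genes. NET-seq sequences the RNA held by RNA polymerase II, here pulled down through a FLAG tag on the subunit Rpb3, so a count reports nascent transcription and not the amount of mature mRNA. The deletion strain was BY4741 with the genotype RPB3-3xFLAG-HisMX6, spp1::KanMX6, which lacks Spp1, a subunit of the COMPASS histone H3 lysine 4 methyltransferase. It was set against BY4741 RPB3-3xFLAG-His3MX6, called the wild type below although it carries the tag as well. Each strain gave 1 library from log-phase cells in glucose medium, 1 at 15 min and 1 at 60 min in galactose medium, which makes 6 libraries with no replicates. The galactose cultures were spun down and resuspended in the new medium, a handling step that the labels do not describe for the glucose cultures, so sugar and handling cannot be told apart. Whether the deletion strain is more than 1 clone is not given in the sources used here.

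Glycogen is a branched store of glucose that yeast builds up when fermentable sugar becomes limiting or under stress. Phosphoglucomutase (PGM1, and its paralog PGM2) interconverts glucose 6-phosphate and glucose 1-phosphate, which becomes UDP-glucose. Glycogenin (GLG2, and its paralog GLG1) starts a chain, glycogen synthase (GSY1, GSY2) extends it and the branching enzyme (GLC3) branches it. Glycogen phosphorylase (GPH1) and the debranching enzyme (GDB1) take it apart. Glycogen synthase is held inactive by phosphorylation, to which the kinase Pho85 with its cyclin Pcl10 contributes, and is activated by the phosphatase Glc7, which Gac1 directs to it and to which Pig1 is related as a targeting subunit. All of this control acts on proteins, which NET-seq does not measure.

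Library totals ran from 1162190 to 4167249 counts, and values are given below as CPM, counts scaled to a common library size, on totals scaled by edgeR's TMM factors. SPP1 itself had 1 count in the deletion in glucose and 0 at both galactose times, against 324, 69 and 131 counts in the wild type. BY4741 is a MATa haploid. The a-cell genes MFA1, MFA2, STE2 and AGA2 lay between 53.2 and 1279 CPM over the 6 libraries. Of the alpha-cell genes, STE3 was at most 5.39 CPM and SAG1 lay between 12.7 and 21.0 CPM. MFA1 and AGA2 were lower in the deletion (log2 -0.72 and -0.65, edgeR adjusted p = 0.0190 and 0.0161), while MFA2, STE2 and SAG1, at -0.49, -0.48 and -0.33, did not pass (adjusted p = 0.164, 0.114 and 0.645). None of the 10 glycogen genes overlaps another annotated gene, and the gap to the nearer neighbour was between 41 bases (GLG2) and 680 bases (GAC1). Reads that the similar GSY1 and GSY2, or PGM1 and PGM2, might share could not be separated here.

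The first question was what happened to the glycogen genes when cells were moved from glucose to galactose. Together the 10 genes took 0.0368% of all counts in the deletion in glucose, 0.862% at 15 min and 0.396% at 60 min. In the wild type they took 0.0388%, 0.849% and 0.393%. Exact 95% binomial intervals of the glucose shares were 0.0350% to 0.0387% in the deletion and 0.0364% to 0.0413% in the wild type, and these cover counting error only. The members fell into 3 patterns. A set of 6 genes, GSY1, GSY2, GLC3, GPH1, GDB1 and GAC1, rose steeply by 15 min and were partly back down at 60 min, GLG2 and PIG1 rose modestly, and PGM1 and PCL10 fell by 15 min. Bulk cultures cannot tell a change in every cell from a change in the share of cells that transcribe a gene.

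**Figure D1:**
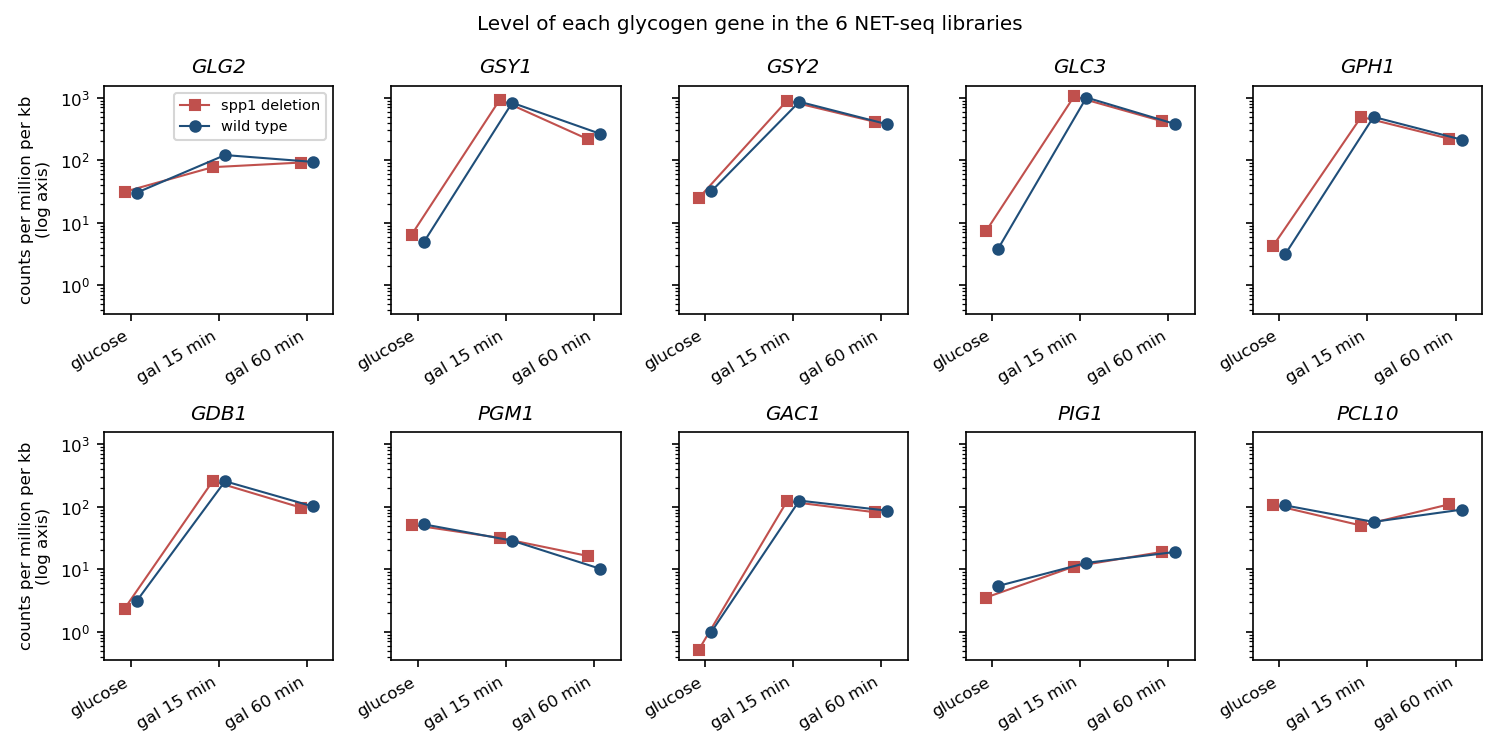
Each panel shows 1 gene, with CPM per kb of gene span on a shared log axis against condition; red squares are the spp1 deletion and blue circles the wild type, 1 library per point. GSY1, GSY2, GLC3, GPH1, GDB1 and GAC1 peak at 15 min in both strains, while PGM1 steps down at each time and PCL10 dips at 15 min.

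At 15 min against glucose 8 of the 10 genes rose and 2 fell. The test was edgeR's quasi-likelihood test with strain as a term and Benjamini-Hochberg adjustment at 0.05 over 5186 genes, of which 75.2% passed (37.1% higher, 38.0% lower). Passing was thus common, so the size of the changes is given as well. The median log2 change of the members was 5.77, against -0.01 over all genes tested. The members were split, from -0.99 to 7.49, and were chosen with earlier results known, so this describes them and is no independent test. The test asks for a change that both strains share, with 2 residual degrees of freedom per gene and 13.0 prior ones borrowed from all genes. Its p-values rest on how differently the strains behaved, in the gene and largely over all genes, and not on the spread between cultures of a strain. In the log2 values below, the number after ± is the size of the log2 change over the root of its F statistic, a rough stand-in for a standard error.

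The branching enzyme gene GLC3 (YEL011W, chromosome V, 133120 to 135234, assembly R64) was among those with the steepest rise. It had 15.4 CPM in glucose, 2231 at 15 min and 891 at 60 min in the deletion, and 8.18, 2136 and 808 CPM in the wild type. Both 15 min libraries lay above both 60 min libraries, and those far above the glucose ones. The log2 change at 15 min was 7.49 ± 0.27 (edgeR adjusted p = 4.19e-12), the 5th highest of 5186 genes. It and GAC1 (7.41 ± 0.23) were within error of each other, and GAC1 was the higher without the wild-type glucose library, at 7.79 against 7.17 for GLC3.

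Both glycogen synthase genes rose, from different starting points. GSY1 (YFR015C, chromosome VI, 174265 to 176391) had 13.7, 1989.8 and 461 CPM in glucose and at 15 and 60 min in the deletion, and 10.5, 1770.1 and 563 CPM in the wild type. GSY2 (YLR258W, chromosome XII, 660716 to 662833), whose product is the main glycogen synthase, had 52.7, 1902 and 872 CPM in the deletion and 67.0, 1831 and 796 CPM in the wild type. In both strains each gene was highest at 15 min and lowest in glucose. At 15 min GSY1 rose by log2 7.24 ± 0.26 and GSY2 by 4.97 ± 0.22 (edgeR adjusted p = 3.74e-12 and 1.65e-11), ranks 11 and 58 of 5186.

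The genes for breaking glycogen down rose as well. GPH1 (YPR160W, chromosome XVI, 861306 to 864014) had 11.5, 1341 and 597 CPM in glucose and at 15 and 60 min in the deletion, and 8.57, 1339 and 578 CPM in the wild type. GDB1 (YPR184W, chromosome XVI, 902044 to 906654) had 10.8, 1185 and 447 CPM in the deletion and 14.4, 1181 and 466 CPM in the wild type. At 15 min the strains were nearly level for both genes. The log2 changes at 15 min were 7.03 ± 0.23 for GPH1 and 6.57 ± 0.22 for GDB1 (edgeR adjusted p = 3.74e-12 for each). Transcription of synthesis and breakdown genes therefore went up in the same libraries.

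The regulatory genes split. GAC1 (YOR178C, chromosome XV, 667860 to 670241), the phosphatase-targeting gene, was almost silent in glucose, with 5 counts in the deletion and 6 in the wild type. It had 1.23, 291 and 194.5 CPM in glucose and at 15 and 60 min in the deletion, and 2.34, 299 and 206 CPM in the wild type. Its log2 change at 15 min was 7.41 ± 0.23 (edgeR adjusted p = 3.74e-12), rank 8 of 5186, but by counting error alone the fold lay between 101 and 735 in the deletion and between 58.2 and 351 in the wild type. Over the alternative settings the log2 change ran from 6.77 in limma to 8.28 with libraries thinned to the smallest total. PIG1 (YLR273C, chromosome XII, 689083 to 691029) had 6.86, 21.5 and 36.9 CPM in the deletion and 10.5, 24.6 and 36.7 CPM in the wild type. PIG1 was higher in CPM at each later time in both strains and rested on at most 45 counts in a deletion library and 57 in a wild-type one. It rose by log2 1.44 ± 0.31 at 15 min (edgeR adjusted p = 6.58e-04).

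PCL10 (YGL134W, chromosome VII, 255663 to 256964), the cyclin gene of the inhibitory kinase, moved the other way. It had 139.5, 65.2 and 143 CPM in glucose and at 15 and 60 min in the deletion, and 137, 74.6 and 117 CPM in the wild type. In both strains the 15 min library was the lowest. PCL10 fell by 0.99 ± 0.16 on the log2 scale at 15 min (edgeR adjusted p = 2.85e-05), rose by 0.90 ± 0.17 between 15 and 60 min (adjusted p = 5.91e-04), and at 60 min stood at log2 -0.09 ± 0.14 against glucose, which did not pass (adjusted p = 0.578).

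The glycogenin gene GLG2 (YJL137C, chromosome X, 154985 to 156127) had 35.8, 88.6 and 105 CPM in glucose and at 15 and 60 min in the deletion, and 34.7, 138.5 and 108 CPM in the wild type. It rose by log2 1.64 ± 0.18 at 15 min (edgeR adjusted p = 7.34e-07). The highest library was the 60 min one in the deletion and the 15 min one in the wild type. PGM1 (YKL127W, chromosome XI, 203541 to 205253), the minor phosphoglucomutase gene, had 88.0, 54.4 and 27.9 CPM in the deletion and 89.6, 49.2 and 17.4 CPM in the wild type. It fell at every step, by 0.77 ± 0.18 on the log2 scale at 15 min and by 1.99 ± 0.21 at 60 min against glucose (edgeR adjusted p = 1.11e-03 and 5.85e-07).

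**Figure D2:**
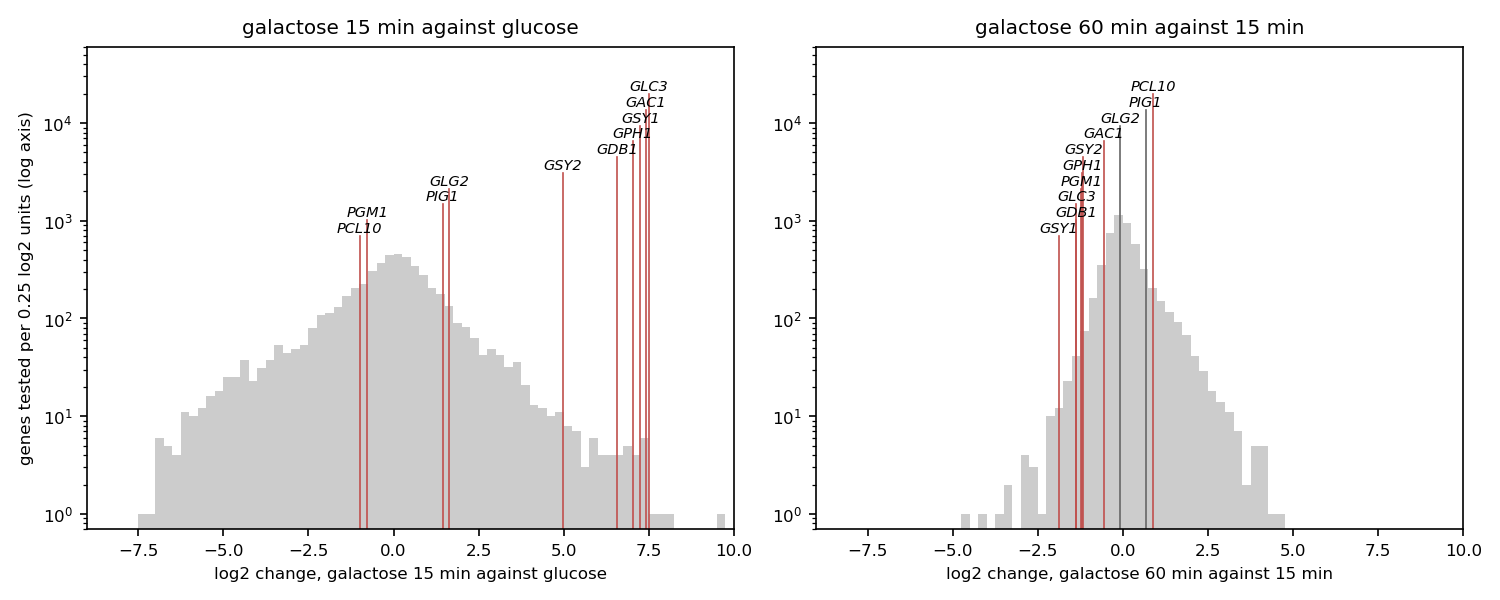
Grey bars count all 5186 genes tested by log2 change in bins of 0.25 (log axis), and vertical lines mark the 10 glycogen genes, red where the edgeR test passed and grey where it did not. GLC3, GAC1, GSY1, GPH1 and GDB1 lie between 6.57 and 7.49 in the far right tail at 15 min. In the 60 against 15 min comparison GSY1, GDB1, GLC3, PGM1, GPH1 and GSY2 lie between -1.87 and -1.16, and GAC1 lies at -0.56.

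At 60 min against glucose 8 genes were still higher and PGM1 was lower, in a comparison that shares its glucose libraries with the one above and in which 66.2% of genes passed (32.3% higher, 33.9% lower). The members' median log2 change was 4.50, against -0.02 over all genes. GAC1 was at 6.85 ± 0.23 (edgeR adjusted p = 2.06e-11; 6.22 in limma and 7.72 after thinning), GLC3 at 6.13 ± 0.26, GPH1 at 5.84 ± 0.23 and GSY1 at 5.37 ± 0.25. PIG1, at 2.11 ± 0.29 (edgeR adjusted p = 9.94e-06), and GLG2, at 1.57 ± 0.19 (adjusted p = 2.02e-06), rose less.

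Between 15 and 60 min 7 of the 10 genes fell, PCL10 rose, and GLG2 and PIG1 did not pass (edgeR adjusted p = 0.771 and 0.0798). Over all genes 36.5% passed, 16.1% lower and 20.4% higher, and the members' median log2 change was -1.18 against 0.00 over all genes. With library totals as the only scaling, 72.4% of all calls were higher in place of 55.8%, the median of all genes shifted by 0.15 and PIG1 passed (log2 0.82, adjusted p = 0.0343). GSY1 fell most, by 1.87 ± 0.19 on the log2 scale (edgeR adjusted p = 3.17e-06), the 34th lowest of 5186 genes. Its 60 min level was 23.2% of the 15 min level in the deletion and 31.8% in the wild type. GLC3 fell by 1.36 ± 0.20, GDB1 by 1.37 ± 0.17, GPH1 by 1.19 ± 0.17 and GSY2 by 1.16 ± 0.19, with levels at 60 min between 37.8% and 45.9% of those at 15 min over both strains. GAC1 kept more, 66.8% in the deletion and 68.9% in the wild type, and its fall of 0.56 ± 0.13 (edgeR adjusted p = 3.05e-03) did not pass in DESeq2 (adjusted p = 0.0590).

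Levels of different genes were compared per kb of gene span within each library. In glucose PCL10 was the most transcribed of the 10, with 107 CPM per kb in the deletion and 105 in the wild type, which placed it at the 55.7 and 55.9 percentiles of 5116 annotated genes. PGM1 came next, then GLG2 and GSY2, whose order could not be told apart in the wild type by counting error. GSY1, GLC3, GPH1, GDB1, PIG1 and GAC1 all lay at or under the 2.31 percentile in both strains. At 15 min the order had turned over: GLC3 led with 1055 CPM per kb in the deletion and 1010.1 in the wild type, at the 95.6 and 95.4 percentiles. The 2 synthase genes followed, with no difference between them beyond counting error, then GPH1, GDB1 and GAC1, and PIG1 was last. At 60 min GLC3 and GSY2 shared the top in both strains, and GDB1, GLG2, PCL10 and GAC1 lay between 81.7 and 110 CPM per kb. Among these, genes next to each other in a strain's order were not set apart by counting error. Genes further apart in the order, such as PCL10 and GAC1 in the deletion, were not compared.

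Ratios within a library do not depend on scaling between libraries. In the deletion the ratio of GSY1 to GSY2, per kb, stood at 0.259, 1.04 and 0.527 in glucose and at 15 and 60 min, with exact 95% counting intervals of 0.190 to 0.350, 0.991 to 1.10 and 0.475 to 0.584. In the wild type it was 0.156, 0.963 and 0.704, with intervals of 0.100 to 0.236, 0.907 to 1.02 and 0.645 to 0.769. The minor synthase gene thus matched the major one at 15 min and was below it in glucose and at 60 min in both strains. At 60 min the ratio was lower in the deletion than in the wild type, with intervals that do not overlap and 1 library each. GPH1 over GDB1 varied less, at 1.82, 1.93 and 2.27 in the deletion and 1.01, 1.93 and 2.11 in the wild type. Its glucose value in the wild type rests on 22 and 37 counts. That interval, 0.569 to 1.76, lay below the wild-type 15 min interval of 1.80 to 2.07. In the deletion the glucose interval was 1.18 to 2.81. GAC1 over PIG1 was 0.146, 11.1 and 4.31 in the deletion and 0.182, 9.95 and 4.59 in the wild type, so the more transcribed of these phosphatase-targeting genes was PIG1 in glucose and GAC1 in galactose.

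A list of 14 other genes of the pathway was used, and 12 are in the table; SGA1 and PSK2 were not analysed here. These include GLG1 and UGP1, whose counts are uncertain, as given below. At 15 min 11 of the 12 rose and GLG1 fell, with a median log2 change of 1.26. Over all genes tested 75.2% passed (37.1% higher, 38.0% lower). At 60 min against glucose 8 rose, GLG1 fell and 3 (PCL6, PCL8, UGP1) did not pass, where 66.2% of all genes passed (32.3% higher, 33.9% lower). Between 15 and 60 min 6 fell and 6 did not pass, and the count was 3 in DESeq2 and 3 without the wild-type 60 min library. Over all genes 36.5% passed between those times (16.1% lower, 20.4% higher). With a 2-fold minimum 6 of the 12 passed at 15 min, 5 at 60 min against glucose and 2 between the galactose times. Of all 5186 genes 2344, 1727 and 719 did so in these comparisons. The largest rise was that of PGM2, the major phosphoglucomutase gene, known to be induced by galactose: 15.7, 2513 and 799 CPM in glucose and at 15 and 60 min in the deletion, and 14.0, 2370.0 and 760.1 CPM in the wild type (log2 7.35 ± 0.25 at 15 min, edgeR adjusted p = 3.74e-12). PGM2 over PGM1, per kb, was 0.179, 46.2 and 28.7 in the deletion and 0.157, 48.3 and 43.8 in the wild type. The paralogs therefore traded places.

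Of the genes for targeting phosphatase to glycogen, GIP2 rose by log2 5.47 ± 0.29 and PIG2 by 3.16 ± 0.19 at 15 min (edgeR adjusted p = 8.71e-11 and 3.24e-10). The phosphatase gene GLC7 itself rose by 0.91 ± 0.17 and its regulator GLC8 by 1.61 ± 0.15 (edgeR adjusted p = 1.40e-04 and 6.07e-08). On the kinase side, PHO85 rose by 0.67 ± 0.13 and PCL8, the cyclin gene most like PCL10, by 0.88 ± 0.13 (edgeR adjusted p = 2.89e-04 and 1.43e-05). PCL10 over PCL8, per kb, was 1.11, 0.305 and 1.10 in the deletion and 1.06, 0.288 and 0.980 in the wild type, so these cyclin genes were level in glucose and at 60 min and apart only at 15 min. PSK1, whose kinase also acts on glycogen synthase, rose by 2.44 ± 0.16 (edgeR adjusted p = 1.31e-09). GLG1 (log2 -0.41 ± 0.13, adjusted p = 0.0115) and the UDP-glucose pyrophosphorylase gene UGP1 (log2 2.51 ± 0.24, adjusted p = 1.00e-07) lie on chromosome XI to the right of MTC2. In that stretch 81 genes on the W strand had a median level that differed by log2 -1.64 from the median of 81 genes on the C strand. Left of MTC2 the same difference was 0.33, between 48 genes on the W strand and 52 on the C strand. Both GLG1 and UGP1 are on the W strand, so their counts are uncertain. PGM1 lies to the left of MTC2, 51517 bases from it.

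**Figure D3:**
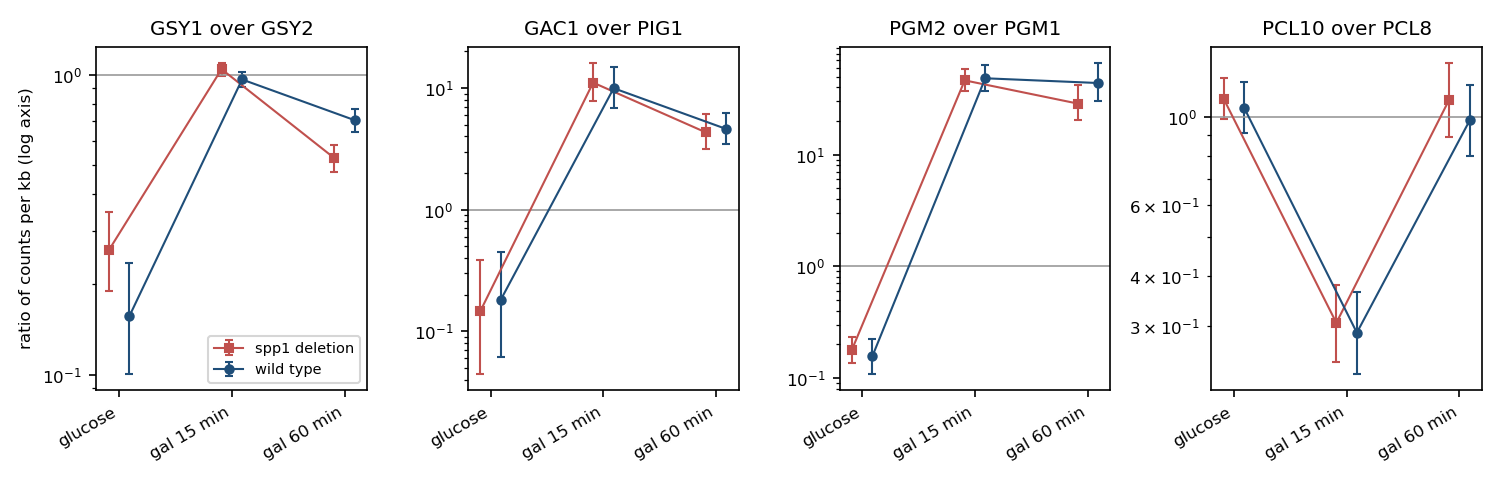
Each panel shows the ratio of counts per kb of a pair of related genes within a library (log axis) by condition, with red squares for the spp1 deletion, blue circles for the wild type and exact 95% counting intervals as bars. GSY1 over GSY2 approaches 1 at 15 min, GAC1 over PIG1 and PGM2 over PGM1 cross from below 1 to above it, and PCL10 over PCL8 dips to about 0.3 at 15 min.

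Neighbouring genes were set beside the 6 strongly raised ones because the counting windows are not given. Of their 9 nearest annotated neighbours with a test, 6 rose and 2 fell at 15 min. Over all genes tested 75.2% passed in that comparison (37.1% higher, 38.0% lower). Log2 changes of the 9 ran from -0.94 (SGV1, beside GPH1) to 3.58 (CMK1, 387 bases from GSY1). SYC1, 1603 bases from GAC1, rose by 0.39 (edgeR adjusted p = 0.0449). UBC8, 568 bases from GLC3, rose by 3.24. All 9 changes were smaller than those of the adjoining glycogen genes; the part of read-through in either was not tested. The profile of the members' medians over the 6 libraries was matched most closely by ATG39, RTC3, OM45, ZNF1 and TDH1, with root mean square differences of 0.170, 0.229, 0.235, 0.274 and 0.291 in centred log2 CPM. Among the members GSY2 was nearest to that median profile, at 0.306, and PGM1 farthest, at 3.01.

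The second question was whether loss of Spp1 changed transcription of the glycogen genes. Across the 3 conditions 0 of the 10 genes passed edgeR's test, against 1.83% of all genes tested (1.10% higher, 0.733% lower). At an unadjusted p under 0.05 the count was 0 in edgeR, 0 in DESeq2 and 1 in limma, and none of these tools called a member. Over all genes 13.6%, 5.28% and 13.1% had such a p in edgeR, DESeq2 and limma. For 10 genes the members' counts are near those shares. The log2 differences, deletion minus wild type, ran from -0.23 (GLG2, PIG1) to 0.23 (GLC3), with a median of -0.01, against 0.00 over all genes. Approximate 95% intervals, from the stand-in for a standard error, reached from -0.74 at the lowest (PIG1) to 0.61 at the highest (GLC3). Differences of 2-fold shared by the conditions thus lay outside all 10 intervals. Smaller ones that fall inside a gene's own interval could not be set aside for that gene. The intervals do not cover the spread between cultures of a strain, which is not known here. GAC1, with the smallest stand-in error of the 6 steeply raised genes here, had a value of -0.08 (interval -0.35 to 0.19), and for GSY2 it was -0.03 (-0.36 to 0.30). Of the 12 other pathway genes 0 passed in edgeR, limma or DESeq2, with values from -0.12 to 0.27. In edgeR 0 of them had an unadjusted p under 0.05, where 13.6% of all genes did.

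**Figure D4:**
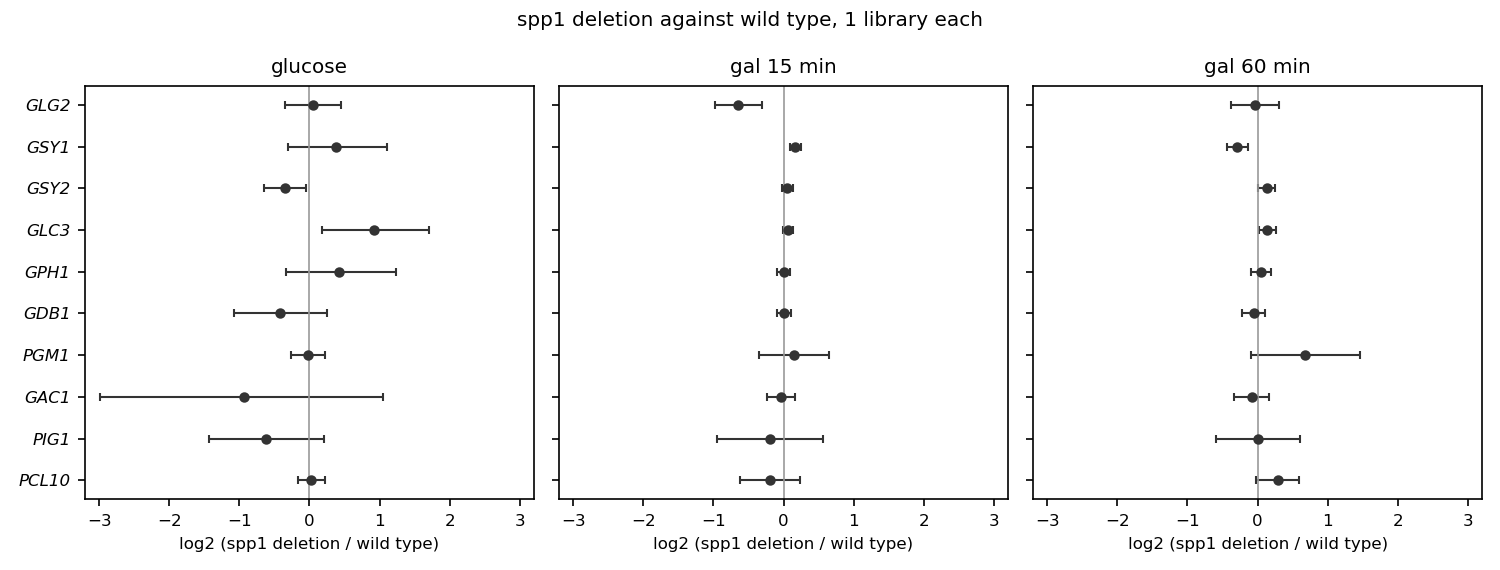
Points give the log2 ratio of CPM, spp1 deletion over wild type, for each glycogen gene in each condition, with 1 library per strain; bars are exact 95% counting intervals. Most intervals span 0, and the widest, of GAC1 in glucose, rests on 5 and 6 counts.

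Within single conditions, with 1 library per strain and no test, 0 of 30 values reached 2-fold, where 1.21%, 2.26% and 1.70% of all genes did in glucose and at 15 and 60 min. The counting interval left out 0 for 7 of the 30 values, with 2, 2 and 3 of 10 in the glucose, 15 min and 60 min cultures, and for 6 of the 30 with library totals as the only scaling. The same was true of 33.4%, 24.1% and 28.5% of all genes, and the members' counts are near those shares. Among these 7 the widest gap was in GLC3 in glucose, with 63 counts in the deletion and 21 in the wild type (15.4 against 8.18 CPM, fold 1.89, exact 95% counting interval 1.14 to 3.26). At 15 and 60 min its fold was 1.04 and 1.10. GLG2 at 15 min was lower in the deletion (88.6 against 138.5 CPM, fold 0.640, interval 0.508 to 0.805), and its folds in glucose and at 60 min were 1.03 and 0.977. PGM1 at 60 min had 27.9 CPM in the deletion against 17.4 in the wild type, from 34 and 27 counts, and its interval spans no difference.

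The response to galactose was also compared between the strains. Differences between the deletion's and the wild type's log2 responses ran from -0.78 (GLC3 at 15 min against glucose, 7.09 in the deletion and 7.87 in the wild type) to 0.68 (PGM1 at 60 min against glucose, -1.62 in the deletion and -2.30 in the wild type). Of 30 such differences 0 reached 2-fold, where 2.49% (15 min against glucose), 2.41% (60 min against glucose) and 4.03% (60 against 15 min) of all genes did, and with 1 library per group they carry no test. Both extremes rest on a low-count library: GLC3 in wild-type glucose with 21 counts and PGM1 at 60 min in the wild type with 27. The upper extreme also depends on the prior count of 2, which shrinks responses from few counts. GAC1, with 5 and 6 counts in glucose, differed by 0.55 at 15 min against glucose. Without a prior count its fold was 237.5 in the deletion and 128 in the wild type. For PGM1 at 60 min against glucose these folds were 0.317 and 0.194. Between 15 and 60 min the largest of these differences was that of GLG2, at 0.60 (log2 0.24 in the deletion and -0.36 in the wild type). PGM1 differed by 0.51 (-0.94 in the deletion and -1.45 in the wild type) and PCL10 by 0.47 (1.12 in the deletion and 0.65 in the wild type). GSY1 differed by -0.46, the other way, with -2.11 in the deletion and -1.65 in the wild type. For GPH1 and GSY2 the fall between those times differed by 0.04 and 0.08 between strains.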

How the data were processed

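The authors deposited raw read counts for each gene in 6 libraries, as whole numbers. Alignment with Bowtie to sacCer3 is named in the submitters' processing notes; for the counter, its strand setting and the gene windows, the steps were not given in the sources used here. Of 5219 genes, 5116 identifiers matched the R64 reference table and 103 did not; 3 lines of the table were blank. Gene sequences were not used here, so a planned count of promoter motifs was not run.

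Genes with a mean count of at least 10 (5186; 33 were not tested) were fitted with edgeR 4.0.16 in R 4.3.3 (TMM, quasi-likelihood, condition plus strain); common dispersion was 0.00979. The 10 glycogen genes and the 12 other pathway genes in the table all passed this minimum. Single-library pairs used log2 CPM with a prior count of 2, and intervals are Clopper-Pearson, computed with scipy 1.17.1. One count equals 0.245 to 0.821 CPM. The fit was also run on counts simulated at a single dispersion of 0.01, with changes of at most 2-fold. Many changes in these data were larger, and no result here rests on that run. Alternatives covered scaling, filter, prior count, limma 3.58.1, DESeq2 1.42.0, thresholds, thinning and left-out libraries. Named genes were all members, the pathway list, SPP1, mating-type genes, nearest neighbours and the 5 most alike profiles; gene pairs for ratios were chosen after values were seen. The members and lists were chosen with earlier results of these data known. Figures used matplotlib 3.10.9.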

Additional observations from a re-analysis of the deposited data

Results flagged for a closer look

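The strain difference of each glycogen synthase gene had opposite signs in a pair of conditions, with counting intervals that left out 0 under TMM scaling and 1 library per strain. GSY1 was higher in the deletion at 15 min (log2 0.17, counting interval 0.09 to 0.25) and lower at 60 min (log2 -0.29, interval -0.44 to -0.13). GSY2 was lower in the deletion in glucose (log2 -0.34, interval -0.64 to -0.05) and higher at 60 min (log2 0.13, interval 0.01 to 0.25). With library totals alone the 60 min value of GSY2 was 0.11 with an interval of -0.0082 to 0.23, which spans 0, so its change of sign was no longer beyond counting error. The intervals of the GSY1 values still left out 0. The difference between conditions was not tested, and the spread between cultures of a strain is not known here.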

How the results depend on the processing

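The number of glycogen genes that passed stayed within 1.5 times the reported count in every alternative run. Leaving out each library in turn kept the sign of every log2 change of a glycogen gene that passed in the reported fit. At 15 min against glucose the change ran from 7.17 to 7.98 for GLC3 and from -0.99 to -0.63 for PGM1. Between strains the values of the 10 glycogen genes ran from -0.39 (PIG1) to 0.36 (GLC3). Over all the alternatives, 0 of these genes were called between strains and 0 tested log2 values reversed among called results. Of 736 tested values under alternatives, 729 kept their call. Of 270 single-library values, 33 moved out of their counting interval with another prior count or scaling, and 0 of those outside 0 changed sign. A 2-fold minimum left 8 members at 15 min, without PGM1 and PCL10, and 6 between 15 and 60 min, without GAC1 and PCL10. PIG1 passed between 15 and 60 min with upper quartile factors (log2 0.76, adjusted p = 0.0413). A minimum mean count of 50 leaves PIG1 untested. A prior count of 20 lowered single-library responses of the raised genes, for GAC1 at 15 min to 4.77 in the deletion, since its glucose counts are small. Over all genes, calls between strains ran from 57 to 195 with single libraries left out, against 95; they were 156 with upper quartile factors, 50 in DESeq2, 46 at an adjusted p of 0.01, 33 at 2-fold, 143 after thinning, 146 with both 15 min libraries left out and 169 with both 60 min libraries left out. Higher calls were 60.0% of these in the reported fit, 44.9% with upper quartile factors and 41.7% with library totals. Upper quartile factors moved the median of all genes by -0.12 at 15 min. At 2-fold, 2344, 1727 and 719 genes passed at 15 min, 60 min and between them, against 3899, 3433 and 1891. The reported fit already compares times within strain and strains within condition. A block on replicate number could not be added, and in that sense no paired analysis was possible because each strain and condition has 1 library.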
